A study of Mus musculus with 19 samples.

Results

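The genes described here are 42 genes of DNA replication and of the passage from G1 into S phase, listed by name for their known role in the process, out of 55421 genes in the table of counts. Transcripts were sequenced from liver of adult male C57BL/6 mice that carry a doxycycline-controlled transgene for the AP-1 dimer c-Jun~Fra2, and from control littermates. Doxycycline was withdrawn from mutants and controls alike at 3 weeks of age. Livers were taken 2 months later from 3 mutants and 6 controls, and 9 months later from 3 mutants and 3 controls. The 9-month mutants gave tissue without visible tumour (1 piece from each animal) and visible tumours (2 from mutant 1 and 1 each from mutants 2 and 3), and counts of both tumours of mutant 1 were added up, so each n is a number of animals. The promoter that drives the transgene and the kind of control allele are not stated in the labels used here, and the 2 times were sequenced in separate runs, so that time and run cannot be told apart.

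Replication begins with licensing. In G1 the origin recognition complex, with Cdc6 and Cdt1, loads the Mcm2-7 ring onto DNA, and at the start of S phase Cdc45, the GINS complex and Mcm10 turn that ring into a running helicase. Polymerases, their sliding clamp Pcna and the clamp loader then copy the strands, Fen1 and Lig1 join the pieces of the lagging strand, and cyclins D and E with E2F factors control when a cell enters this programme. Adult hepatocytes are mostly quiescent and can return to the cycle, for example after loss of liver tissue.

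Library depth ran from 14294611 to 22062341 counts. CPM is the usual scale for a gene's share of a library. Before TMM scaling, 1 CPM is about 14.3 to 22.1 counts in a single library. Levels are CPM after TMM scaling, a correction for differences in library composition, given as mean ± SD over animals. Changes are log2 values ± SE from edgeR's quasi-likelihood test, and "rose" or "fell" means a Benjamini-Hochberg adjusted p under 0.05 over all genes tested. Fosl2, the gene of Fra-2, was at 770.5 ± 117 CPM in 2-month mutants and 12.3 ± 3.67 CPM in their controls, and at 869 ± 82.5 CPM in 9-month tumour-free tissue and 639 ± 69.0 CPM in tumours against 13.6 ± 5.30 CPM in controls. Jun, the gene of c-Jun, was at 612 ± 71.0 against 17.0 ± 5.73 CPM at 2 months, but 9-month control 1 carried 380.2 CPM. The 9-month animals numbered 1 had high immediate early genes, with a summed level of up to 2947 CPM in controls, 728 CPM in tumour-free tissue and 1144 CPM in tumours. The 9 hepatocyte markers were all detected in every group and summed to between 122006 and 148035 CPM in 2-month controls and 49807 and 66132 CPM in mutants, and at 9 months to between 119896 and 136031 CPM in controls, 48516 and 51243 CPM in tumour-free tissue and 64093 and 76227 CPM in tumours.

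Several origin licensing genes, Mcm2, Mcm4, Mcm6 and Cdt1 among them, rose in mutant liver, most genes of the copying enzymes did not pass, and Mcm10 and Tk1 fell. At 2 months 10 of the 40 members tested rose and 3 fell, against 22.3% of all genes tested that rose and 20.4% that fell (42.7% together). In 9-month tumour-free tissue 7 of 41 rose and 3 fell, against 18.1% and 16.8% of all genes (34.9% together). In tumours 8 of 41 rose and 3 fell, against 13.8% and 11.3% (25.1% together). The share of members that rose was thus 25%, 17.1% and 19.5% in the 3 comparisons, near that of all genes in the first 2, and the share that fell (7.50%, 7.32% and 7.32%) was below that of all genes. In the same order, 8, 13 and 19 of all 42 members, tested or not, lay above the controls in every mutant animal and 3, 5 and 4 below. Of all genes tested 19.1%, 26.3% and 25.9% lay above and 19.5%, 22.7% and 20.2% below. The median member changed by 0.17, 0.17 and 0.31, against 0.01, -0.01 and 0.01 for all genes. Orc1 had too few counts to test anywhere (4 to 19 per group) and Cdc6 too few at 2 months. Among the members that rose, Cdc6, Uhrf1 and, in tumour-free tissue, Gins3 had enough counts only through the mutants. Both times share no animals, and 5 members rose in 2-month mutants and in 9-month tumour-free tissue (Mcm2, Mcm4, Mcm6, Cdt1 and Ccnd1), which is 50% of the first list and 71.4% of the second, while Mcm10 and Tk1 fell in both. For all genes that rose the same overlap was 60.4% and 71.2%.

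**Figure D1:**
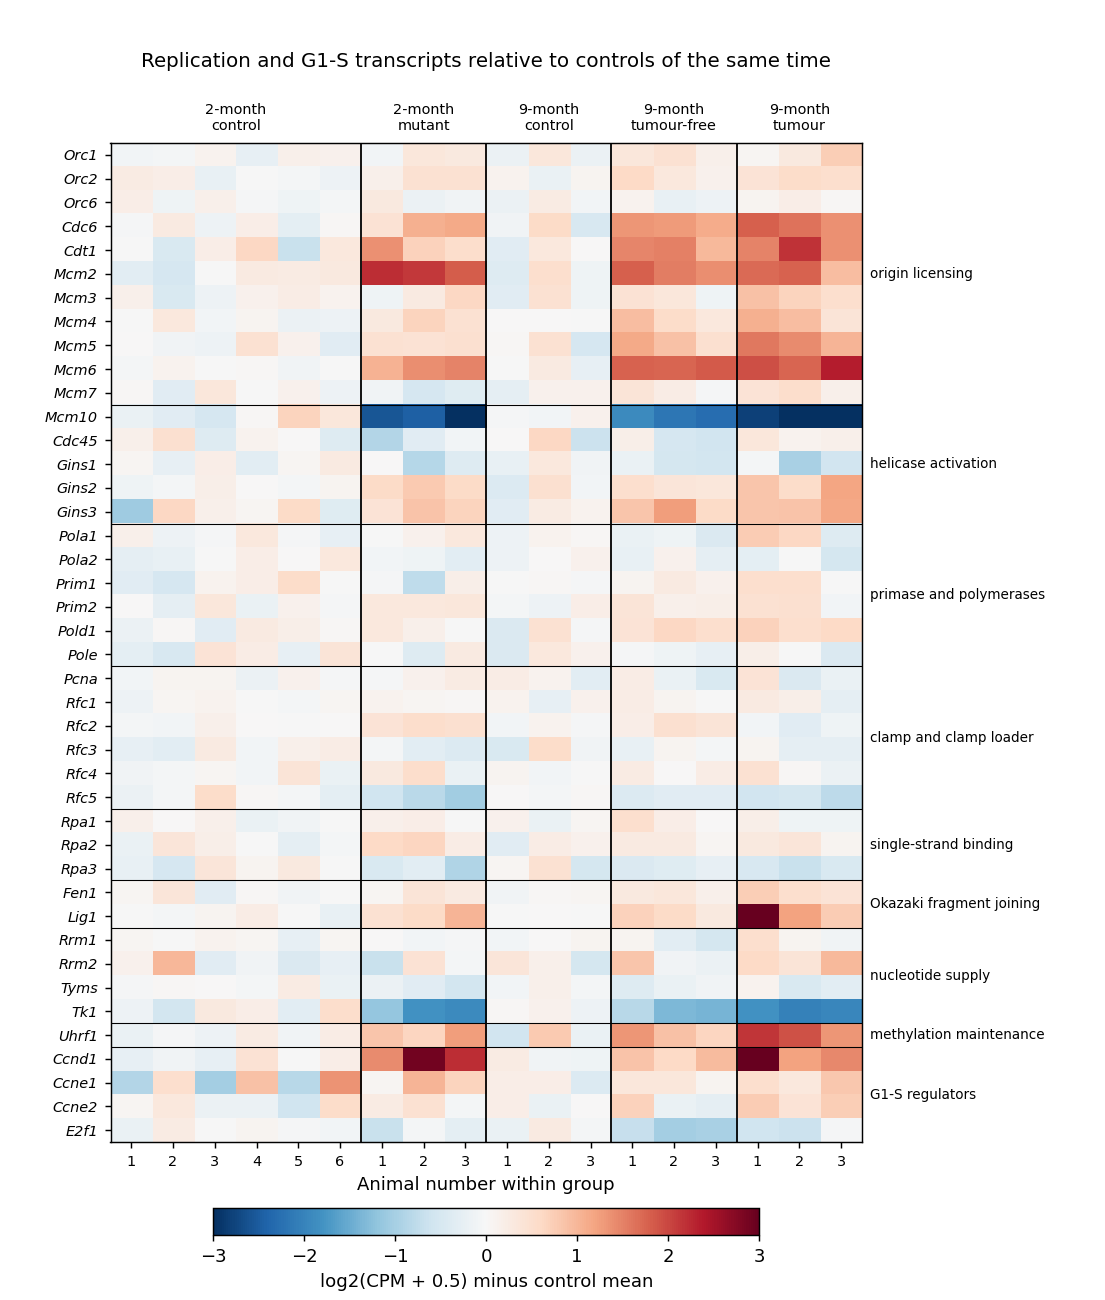
Level of each of the 42 members (rows, by role) in each animal (columns, by group), as log2(CPM + 0.5) minus the mean of the controls of the same time, with colours ending at 3 and -3. Mcm2, Mcm6 and Ccnd1 are red and Mcm10 and Tk1 blue in every mutant column, and the rows of the primase and polymerase genes are pale.

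Origin licensing held 4 of the 10 members that rose at 2 months, 5 of the 7 in tumour-free tissue and 6 of the 8 in tumours. Of its tested genes 4 of 9 rose at 2 months (44.4%, against 22.3% of all genes). Of 10 tested at 9 months 5 rose in tumour-free tissue (50%, against 18.1%) and 6 in tumours (60%, against 13.8%), and none fell. The 9-month counts include Cdc6, which had enough counts only through the mutants, and Mcm4, whose calls were lost in several alternatives. This list was chosen with earlier results of these data known, and its share was not tested. The 11 licensing transcripts summed to between 77.7 and 79.4 CPM in 2-month mutants and between 46.1 and 54.7 CPM in their controls. At 9 months the sum lay between 46.4 and 63.0 CPM in controls, 83.9 and 109 CPM in tumour-free tissue, and 101 and 119.7 CPM in tumours. The mutant ranges lay above the control range at each time. These are bulk samples, in which fewer cells of a type and less RNA per cell cannot be told apart.

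Mcm2, a subunit of the Mcm2-7 ring, was at 16.5, 15.3 and 12.3 CPM in the 2-month mutants and at 2.09 (lowest), 3.48 (median) and 3.94 (highest) CPM in their controls. No mutant overlapped a control, and Mcm2 rose by 2.20 ± 0.206 (adjusted p = 9.28e-06), which is 4.6-fold. In the 9-month animals it was at 4.72, 9.12 and 5.70 CPM in controls, 23.0, 19.1 and 17.3 CPM in tumour-free tissue and 21.5, 22.5 and 12.3 CPM in tumours. Both mutant tissues stood above every control, with changes of 1.57 ± 0.262 (adjusted p = 0.0024) and 1.46 ± 0.340 (adjusted p = 0.021).

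Mcm6, another subunit of the ring, rose in all 3 comparisons. The 6 young controls lay between 4.62 and 5.44 CPM (median 4.96) and the 3 mutants at 10.8, 13.9 and 14.8 CPM, a change of 1.40 ± 0.130 (adjusted p = 8.4e-06). At 9 months the controls were at 4.94, 6.10 and 4.15 CPM, tumour-free tissue at 18.4, 18.1 and 19.3 CPM and tumours at 20.6, 17.8 and 27.9 CPM. Its change was 1.85 ± 0.185 in tumour-free tissue (adjusted p = 0.000183) and 2.07 ± 0.257 in tumours (adjusted p = 0.00259), with no overlap between mutant and control animals. The call held in each of the 16, 14 and 17 alternatives run for it in the 3 comparisons.

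The other ring subunits were less even. Mcm4 rose in all 3 comparisons by 0.52 ± 0.162, 0.64 ± 0.201 and 0.82 ± 0.241 (adjusted p = 0.0246, 0.0392 and 0.0448). Mcm5 was at 10.6, 9.33 and 6.91 CPM in tumours and 3.29, 4.56 and 2.10 CPM in 9-month controls and rose by 1.37 ± 0.341 (adjusted p = 0.0265). In 2-month mutants and in tumour-free tissue its change did not pass (0.53 ± 0.217 and 0.87 ± 0.322, adjusted p = 0.0698 and 0.0696). Mcm3 and Mcm7, the remaining subunits measured here, passed in none of the 3 comparisons. Their changes were 0.30 ± 0.220 and -0.34 ± 0.160 at 2 months and 0.62 ± 0.274 and 0.31 ± 0.211 in tumours.

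The loading factors Cdt1 and Cdc6 were higher in mutants. Cdt1 was at 10.5, 6.32 and 5.61 CPM in 2-month mutants, and its controls ran from 2.19 to 6.08 CPM (median 4.03), so that the ranges overlapped (0.93 ± 0.312, adjusted p = 0.0325). In the older animals the groups separated, with 2.16, 3.73 and 2.93 CPM in controls, 8.81, 9.16 and 6.16 CPM in tumour-free tissue and 8.94, 14.8 and 8.27 CPM in tumours. Cdt1 rose by 1.42 ± 0.269 (adjusted p = 0.00454) and 1.79 ± 0.337 (adjusted p = 0.0102). Cdc6 is a low transcript, with 21 counts over the 3 controls, 108 over tumour-free tissue and 211 over tumours at 9 months. It rose by 1.90 ± 0.552 (adjusted p = 0.0294) and 2.35 ± 0.629 (adjusted p = 0.0331). The controls alone (5, 14 and 2 counts) were too low to test, so these rises rest on counts in the mutants and are a description. At 2 months it was not tested, with 47 counts in 3 mutants and 18 in 6 controls. The recognition complex genes Orc2 and Orc6 passed in none of the 3 comparisons.

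Promoter sequences of 4 helicase genes are shown because 3 of them rose and Mcm10 fell. Each is the 180 bases before the RefSeq start (GRCm38.p6), 5′ to 3′ on the gene's strand. Capitals mark matches to an E2F site (TTTCCCGC, TTTGGCGC, TTTCGCGC or TTTGCCGC) or a CCAAT box (CCAAT) on either strand; neighbouring E2F matches overlap. E2F sites are known from many S-phase genes, and CCAAT boxes from cell cycle promoters in general. The stretches lie on the minus strand for Mcm2, Mcm6 and Mcm10 and on the plus strand for Mcm5, at chr6:88898781-88898960, chr1:128359706-128359885, chr2:5012792-5012971 and chr8:75109329-75109508, and hold no base of these genes' exons in GENCODE M21.
Mcm2: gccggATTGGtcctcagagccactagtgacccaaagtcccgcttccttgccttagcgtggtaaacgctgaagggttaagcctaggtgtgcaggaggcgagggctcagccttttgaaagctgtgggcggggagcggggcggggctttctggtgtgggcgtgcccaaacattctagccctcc
Mcm5: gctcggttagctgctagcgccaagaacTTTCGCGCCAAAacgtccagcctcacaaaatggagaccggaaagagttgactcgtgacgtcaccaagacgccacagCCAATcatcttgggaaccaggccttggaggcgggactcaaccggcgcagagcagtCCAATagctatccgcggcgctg
Mcm6: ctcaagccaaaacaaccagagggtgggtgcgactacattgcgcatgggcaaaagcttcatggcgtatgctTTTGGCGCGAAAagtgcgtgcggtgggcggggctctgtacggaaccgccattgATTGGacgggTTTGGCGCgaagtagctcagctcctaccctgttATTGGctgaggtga
Mcm10: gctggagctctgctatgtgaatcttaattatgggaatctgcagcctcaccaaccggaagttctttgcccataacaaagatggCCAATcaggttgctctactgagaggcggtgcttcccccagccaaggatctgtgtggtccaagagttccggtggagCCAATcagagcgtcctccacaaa
Mcm5 and Mcm6 hold E2F matches in this stretch, and Mcm2 (1 CCAAT box) and Mcm10 (2) hold none there.

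Over windows of 250 bases before to 50 after the start, which RefSeq gave for 34 of the 42 members, 13 members (38.2%) held an E2F match, against 2.6% of 27025 genes. Of 9 members with a window that rose in at least 1 mutant comparison 7 held one (Cdc6, Cdt1, Gins3, Lig1, Mcm5, Mcm6 and Uhrf1), and of 4 that fell none did. Among these 7, Cdc6, Gins3 and Uhrf1 had enough counts for their calls only through the mutants. The split is thus a description and was not tested. Mcm2 and Rpa2 rose without a match. Of the other 6 members with one, Mcm3, Mcm7, Pola1, Pold1 and Rfc3 rose in none, and Orc1 had too few counts to test. CCAAT boxes were in 64.7% of members and 41.1% of all genes. The AP-1 site TGANTCA, with N for any base, was in none of the 34 member windows and in 8.97% of all genes. The E-box CACGTG was in 17.6% and 8.09%, and the cell cycle element TTTGAA in 11.8% and 20.2%. A match is a stretch of letters and was not tested as a binding site.

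Mcm10, which helps to start and stabilise the helicase, went the other way from the ring. It was the most abundant member per kilobase of exon in control liver, at 13.1 ± 4.25 CPM per kb at 2 months and 15.3 ± 1.31 CPM per kb at 9 months. Controls ran from 68.2 to 154 CPM (median 92.0) at 2 months and were at 114, 110.1 and 129 CPM at 9 months. The young mutants were at 16.0, 17.4 and 11.3 CPM, tumour-free tissue at 30.9, 25.5 and 23.7 CPM and tumours at 16.3, 5.55 and 11.2 CPM. No mutant sample reached any control. Mcm10 fell by 2.76 ± 0.300 at 2 months (adjusted p = 4.28e-05), by 2.16 ± 0.150 in tumour-free tissue (adjusted p = 3.55e-05) and by 3.47 ± 0.388 in tumours (adjusted p = 0.00194). These are falls to 0.148, 0.223 and 0.0903 of the control level. The annotation shows no gene that overlaps Mcm10 (ENSMUSG00000026669.14, chromosome 2, 4989714 to 5012791, minus strand).

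The other helicase activators were low and mixed. Gins2, a subunit of the GINS complex, was at 1.27, 1.55 and 1.25 CPM in 2-month mutants and at most 0.835 CPM in controls (0.99 ± 0.233, adjusted p = 0.00574). Gins3 rose in tumour-free tissue (1.21 ± 0.372, adjusted p = 0.0366), to 1.92, 2.73 and 1.52 CPM from 0.568, 1.10 and 0.941 CPM. The 9-month controls held 10, 20 and 17 counts, and control 1 lay just under the level needed for a test. Gins3 thus had enough counts there only through the mutants, and this rise is a description. Cdc45 and Gins1 passed in none of the 3 comparisons.

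**Figure D2:**
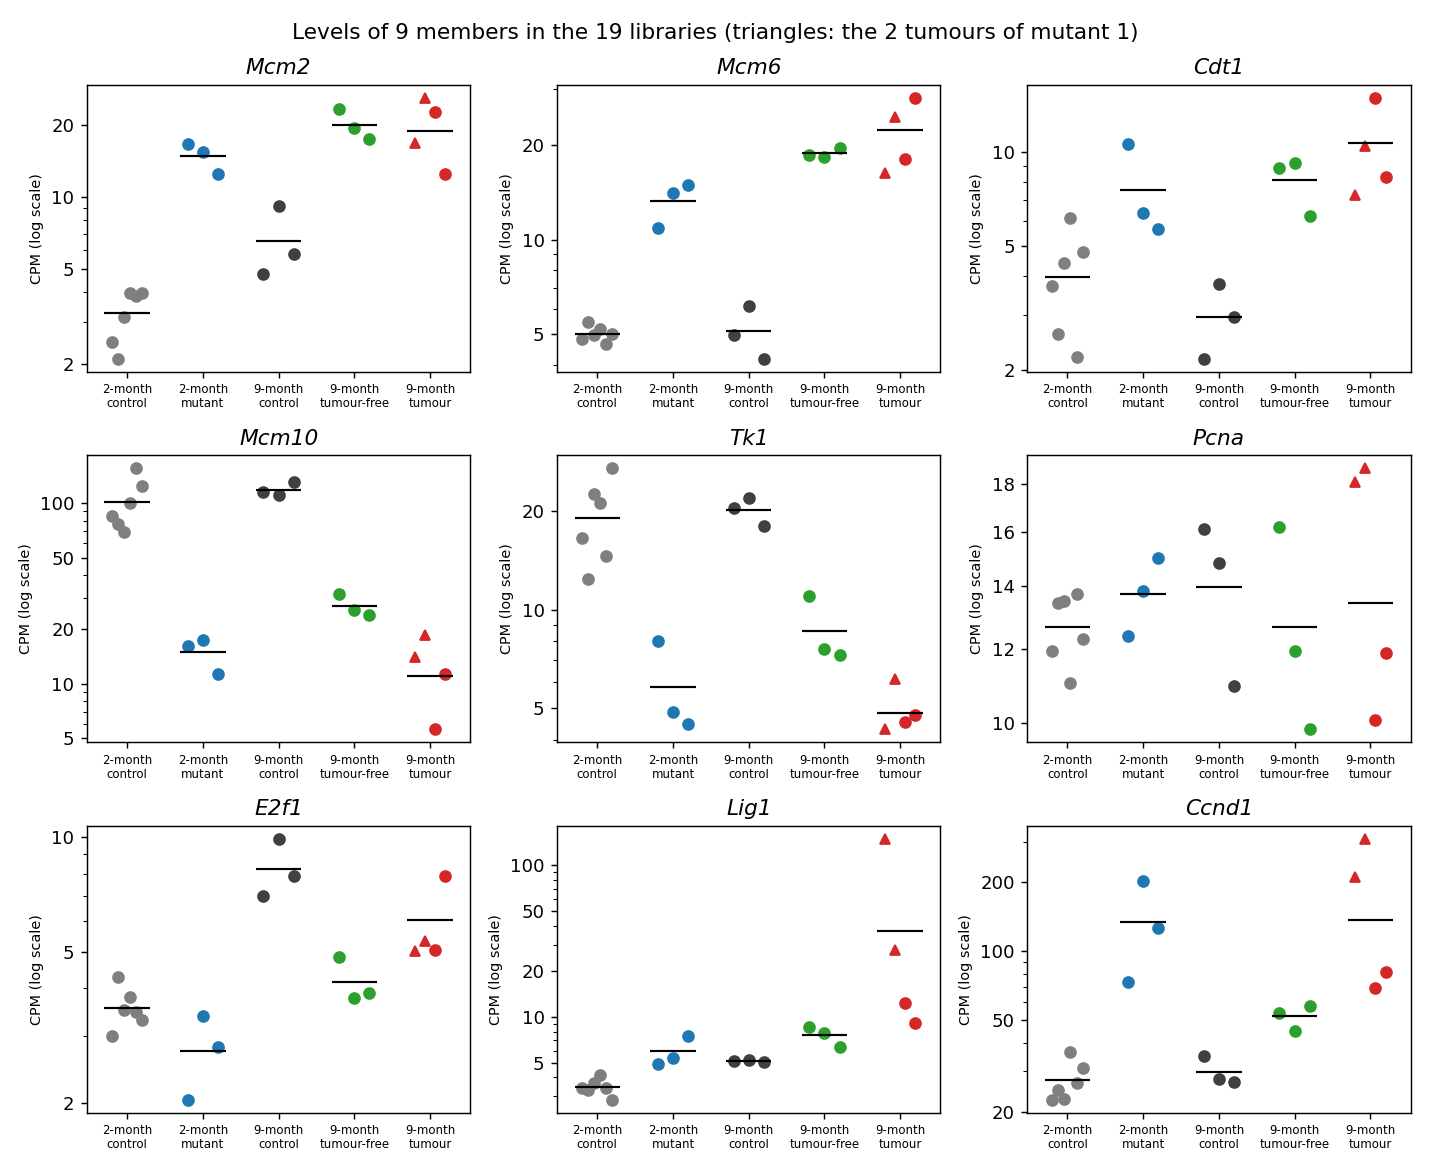
CPM on a log scale of 9 members in each of the 19 libraries, by group, with triangles for both tumours of mutant 1 and black lines for the mean over animals. Mcm2 and Mcm6 sit higher and Mcm10 and Tk1 lower in every mutant library than in every control of the same time, Pcna overlaps throughout, and 1 tumour carries 149 CPM of Lig1.

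None of the 6 genes of primase and the replicative polymerases passed in any of the 3 comparisons. Pola1, Pola2, Prim1, Prim2, Pold1 and Pole encode the primase complex and the catalytic chains of the lagging and leading strand polymerases. Their summed level was between 27.1 and 29.9 CPM in 2-month mutants and 24.1 and 33.0 CPM in controls. The largest change among them was that of Pold1 in tumours (0.53 ± 0.285, adjusted p = 0.211).

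Pcna, the sliding clamp and a common marker of S phase, passed in none of the 3 comparisons with TMM scaling, and at 2 months it passed when libraries were scaled by size alone (0.41, adjusted p = 0.0146). It was at 12.3, 13.7 and 14.9 CPM in 2-month mutants and between 10.9 and 13.6 CPM in controls (0.13 ± 0.109, adjusted p = 0.371). At 9 months it was at 16.0, 14.7 and 10.8 CPM in controls, 16.1, 11.8 and 9.77 CPM in tumour-free tissue and 18.4, 9.98 and 11.8 CPM in tumours, with overlap in each case. Its changes of -0.17 ± 0.226 and -0.11 ± 0.274 (adjusted p = 0.607 and 0.806) turned positive when libraries were scaled by size alone (0.26 and 0.36). Processed copies of Pcna took 263 counts in all libraries against 4849 for the gene itself.

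Among the clamp loader subunits Rfc2 rose at 2 months and Rfc5 fell. Rfc2 was at 29.7, 32.6 and 31.2 CPM in mutants and from 21.2 to 24.8 CPM in controls (0.49 ± 0.0785, adjusted p = 0.000516), and Rfc5 at 5.73, 4.90 and 4.12 CPM against 7.28 to 13.4 CPM (-0.88 ± 0.205, adjusted p = 0.0051). Rfc5 also fell in tumours (-0.72 ± 0.196, adjusted p = 0.0346), but not when libraries were scaled by size alone (-0.26, adjusted p = 0.378). Rfc5 overlaps Wsb2 on the other strand by 499 bases, and Wsb2 was higher in mutants (64.2 against 38.9 CPM per library total at 2 months). Rfc1, Rfc3 and Rfc4 passed in none of the 3 comparisons. Of the single-strand binding proteins Rpa2 rose at 2 months (0.52 ± 0.169, adjusted p = 0.0285), with overlapping ranges, and Rpa1 and Rpa3 did not pass.

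Lig1, the ligase that seals the lagging strand, rose at 2 months, from a control range of 2.82 to 4.08 CPM to 4.86, 5.33 and 7.41 CPM (0.79 ± 0.180, adjusted p = 0.00463), but it missed the threshold in 1 fit over all 5 groups (0.77, adjusted p = 0.250). At 9 months it was at 5.06, 5.16 and 5.04 CPM in controls and 8.55, 7.82 and 6.29 CPM in tumour-free tissue, which did not overlap and missed the threshold (0.54 ± 0.184, adjusted p = 0.0505). In tumours it was at 85.3, 12.3 and 9.01 CPM, above every control, and the change of 2.74 ± 0.894 did not pass (adjusted p = 0.0691). Tumour 1 of mutant 1 carried 149 CPM and tumour 2 of the same animal 27.5 CPM when scaled as libraries of their own. Fen1, the flap nuclease that works with it, passed in none of the 3 comparisons.

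The genes around Lig1 on chromosome 7 did not rise with it as a block in that tumour. Of 16 genes within 500 kb of its ends with a mean of at least 1 CPM over tumours and tumour-free tissue, the median log2 ratio of tumour 1 to the tumour-free mean was 0.04, against 4.23 for Lig1, and 3 were over 2-fold higher. These 3 were Pla2g4c, whose start lies 47372 bases away (2.82, and 1.52 in tumour 2 of the same mouse), and the sulfotransferases Sult2a2 and Sult2a1 (2.72 and 3.52), which were also higher in the tumour of mutant 2 (3.26 and 3.36). In tumour-free tissue Pla2g4c, Sult2a2 and Sult2a1 had means of 0.309, 0.245 and 1.30 CPM, against 5.23, 4.41 and 20.2 CPM in tumour 1, so that these ratios rest in part on the 0.5 CPM added to both sides, and Pla2g4c and Sult2a2 reached the minimum level through the tumours. The ratios come from single libraries and have no test.

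**Figure D3:**
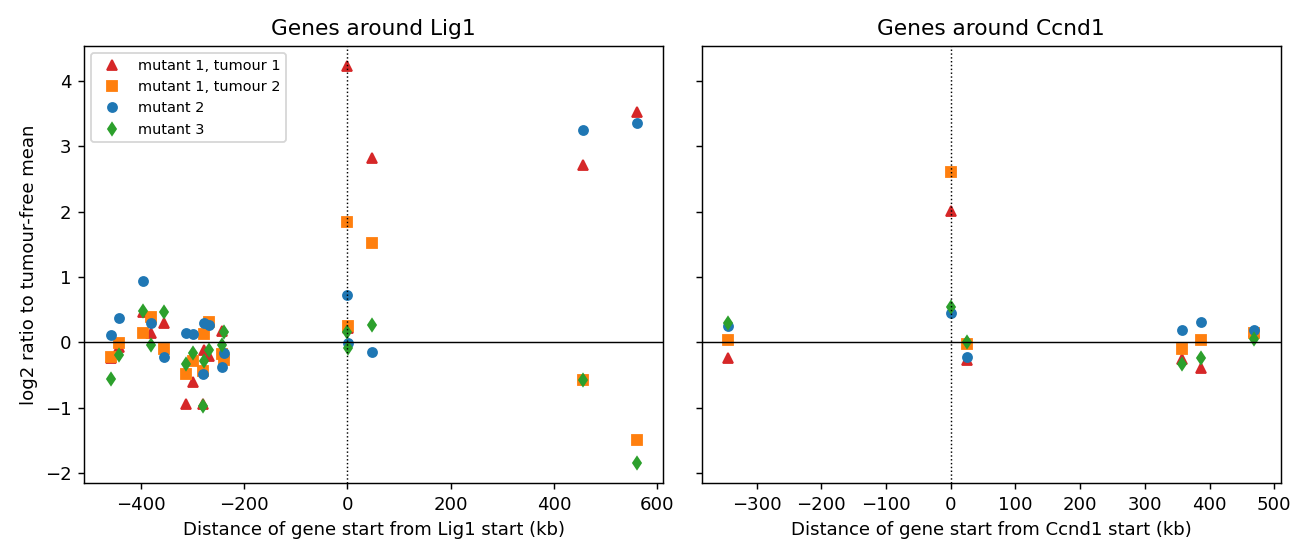
Log2 ratio of each tumour library to the mean of tumour-free tissue (y axis, with 0.5 CPM added to both) for genes within 500 kb of the ends of Lig1 (left) and Ccnd1 (right), against the distance between gene starts (x axis, kb). Lig1 stands at 4.23 in tumour 1 of mutant 1 and Pla2g4c beside it at 2.82, and the 5 genes around Ccnd1 stay within 2-fold.

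Nucleotide supply was marked by the fall of Tk1, the thymidine kinase that salvages thymidine. It was at 7.93, 4.84 and 4.45 CPM in 2-month mutants against 12.3 to 26.7 CPM in controls (median 18.6). At 9 months controls were at 20.2, 21.6 and 17.8 CPM, tumour-free tissue at 10.9, 7.51 and 7.20 CPM and tumours at 5.28, 4.51 and 4.72 CPM. Every mutant sample lay below every control of its time, and the changes were -1.71 ± 0.284, -1.25 ± 0.197 and -2.10 ± 0.183 (adjusted p = 0.000678, 0.00184 and 0.000783). Tk1 (chromosome 11, 117815526 to 117826092, minus strand) overlaps Afmid on the other strand by 169 bases, and Afmid was also lower in mutants, at 29.5 against 51.4 CPM at 2 months and 24.6 (tumour-free) and 10.1 (tumours) against 38.2 CPM at 9 months, per library total. The kit keeps the strand, the strand setting of the counting is not given in the sources used here, and the part of shared reads in the fall of Tk1 was not tested. The ribonucleotide reductase genes Rrm1 and Rrm2 and the thymidylate synthase gene Tyms passed in none of the 3 comparisons.

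Uhrf1, which guides methylation onto newly copied DNA, was low and higher in mutants. It was at 1.04, 0.868 and 1.58 CPM in 2-month mutants and at most 0.539 CPM in controls (1.64 ± 0.328, adjusted p = 0.00213). In tumours it was at 5.44, 4.51 and 2.89 CPM against 0.398, 1.81 and 0.664 CPM (2.08 ± 0.587, adjusted p = 0.0389), and tumour-free tissue, at between 1.61 and 2.84 CPM, overlapped the controls. In 2-month controls Uhrf1 had 4 to 7 counts per library, and between the controls of both times it had too few to test. It thus had enough counts only through the mutants, and its rises are a description.

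Ccnd1, the gene of cyclin D1, which drives G1 with its kinases, was the most abundant member per kilobase in all mutant tissues. It was at 72.8, 201 and 126 CPM in the 2-month mutants and from 22.3 to 36.1 CPM in controls (median 25.5), a rise of 2.30 ± 0.263 (adjusted p = 6.75e-05). At 9 months controls were at 34.7, 27.5 and 26.6 CPM, tumour-free tissue at 53.1, 44.5 and 57.0 CPM and tumours at 262, 68.5 and 80.3 CPM. All mutant samples were above the controls, by 0.78 ± 0.156 (adjusted p = 0.00596) and 2.15 ± 0.533 (adjusted p = 0.0295). In 1 fit over all 5 groups the change in tumour-free tissue did not pass (0.77, adjusted p = 0.167). Both tumours of mutant 1 were high, at 210.3 and 309 CPM. None of the 5 genes within 500 kb was over 2-fold higher in any tumour than in tumour-free mutant tissue, and they were not set against controls. Among them is LTO1, which Ccnd1 overlaps by 1771 bases on the other strand. LTO1 went from 14.6 to 31.0 CPM per library total at 2 months. At 9 months it was at 18.2 CPM in controls, 34.5 CPM in tumour-free tissue and 31.5 CPM in tumours.

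The other G1-S regulators did not follow cyclin D1. Ccne1, a cyclin E gene, ran from 0.417 to 4.24 CPM within the 6 young controls alone and passed in none of the comparisons (0.42 ± 0.666, 0.24 ± 0.268 and 0.54 ± 0.330, adjusted p = 0.644, 0.529 and 0.268), but with libraries scaled by size alone it passed in tumours (0.99, adjusted p = 0.0490). Ccne2 did not pass either. E2f1, a factor that turns on S-phase genes, was at 6.93, 9.78 and 7.80 CPM in 9-month controls and 4.80, 3.73 and 3.86 CPM in tumour-free tissue. The groups did not overlap, and E2f1 fell by 1.01 ± 0.215 (adjusted p = 0.0078), which missed the threshold when libraries were scaled by size alone (-0.58, adjusted p = 0.0594). In tumours it was at 5.17, 5.01 and 7.83 CPM (-0.50 ± 0.275, adjusted p = 0.217), and at 2 months at 2.02, 3.35 and 2.78 CPM against 2.97 to 4.25 CPM (-0.37 ± 0.204, adjusted p = 0.168).

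**Figure D4:**
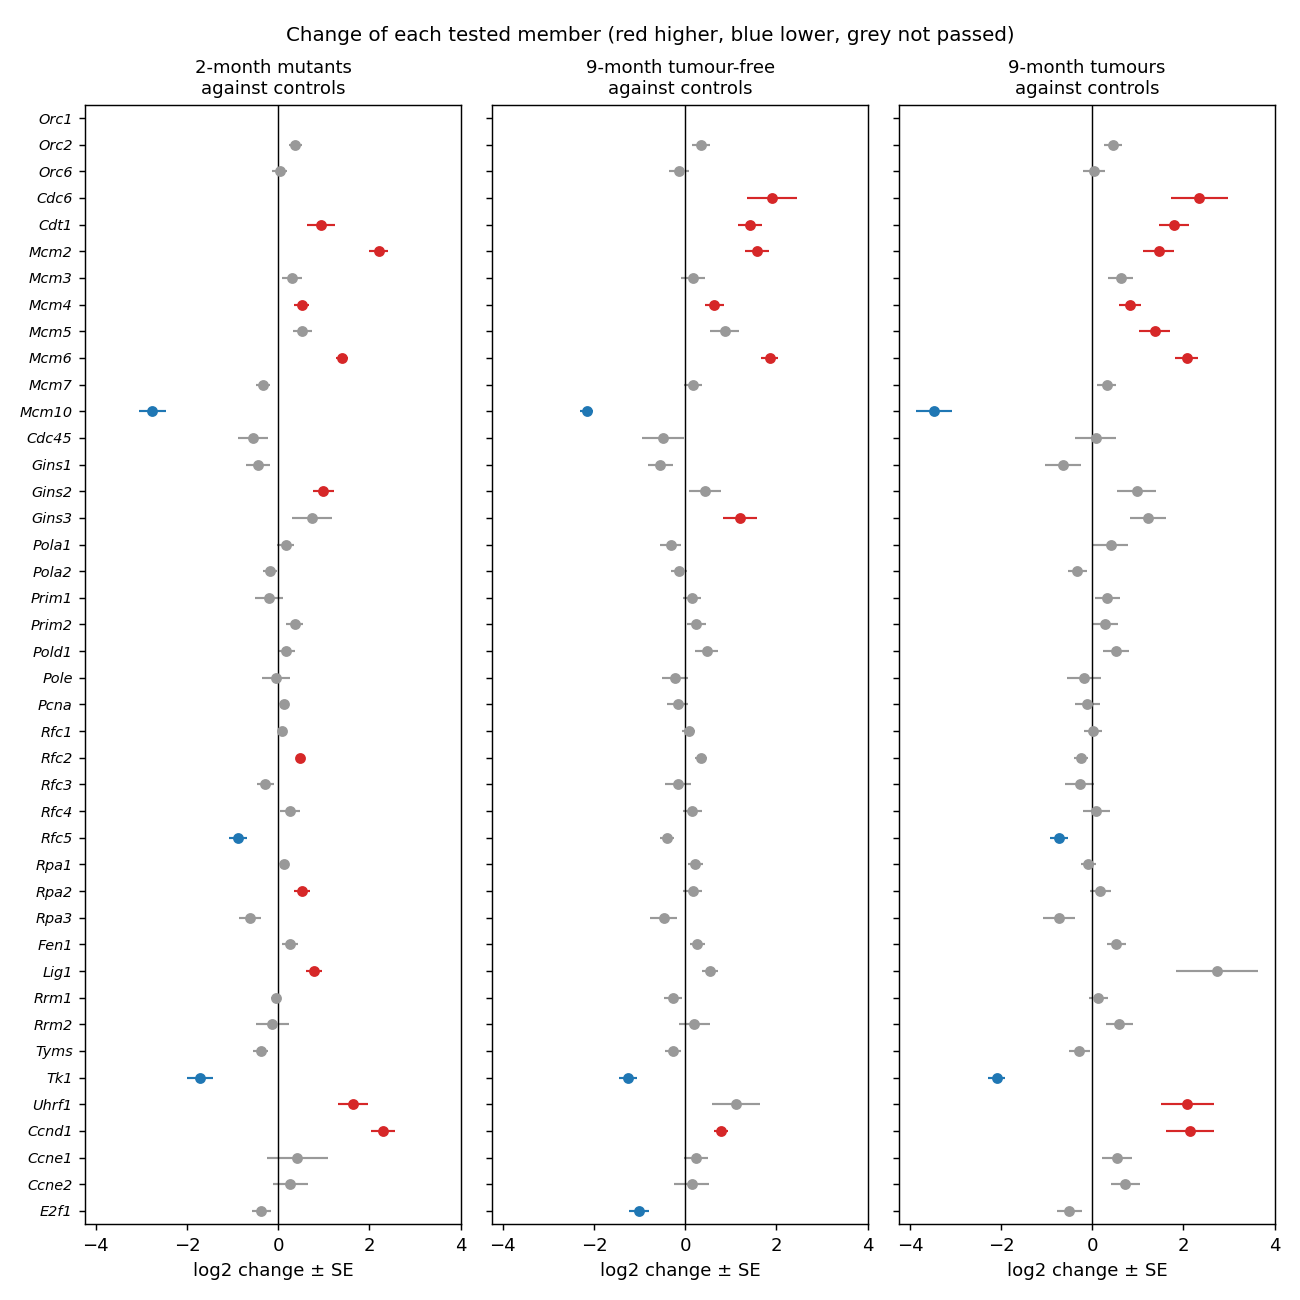
Log2 change ± SE (x axis) of each tested member (y axis) in 2-month mutants, 9-month tumour-free tissue and tumours, each against controls of its time, with red for an adjusted p under 0.05 and higher, blue for lower and grey for not passed. Mcm10 lies at -2.76, -2.16 and -3.47 and Mcm6 at 1.40, 1.85 and 2.07, while all polymerase genes are grey.

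At 2 months 7 of the 13 calls held in every alternative (Mcm2, Mcm6, Mcm10, Rfc2, Tk1, Uhrf1 and Ccnd1). Of these, Uhrf1 had enough counts to test only through the mutants. Cdt1 missed the threshold without mutant 1 (0.59, adjusted p = 0.172) or without control 1, 2 or 5 (adjusted p from 0.0516 to 0.0552). Mcm4 missed it without mutant 2 or 3 (adjusted p = 0.123 and 0.0532), and Rpa2 without mutant 1 or 2 or control 1, 5 or 6 (adjusted p from 0.0509 to 0.115). With the replicate number as a block Lig1, Gins2 and Rfc5 missed it too (adjusted p = 0.0745, 0.110 and 0.0635). In tumour-free tissue Mcm2, Mcm6, Mcm10, Cdt1 and Tk1 held in every alternative. Mcm4 missed the threshold without any of the 3 controls or tumour-free samples 1 or 2 (adjusted p from 0.0712 to 0.119), Cdc6 without control 1 or 3 or any tumour-free sample (0.0533 to 0.0796), and Gins3 without control 1 or 3 or tumour-free sample 1 or 2 (0.0528 to 0.136). The number of members that rose there was 4 without control 1, control 3, tumour-free sample 1 or tumour-free sample 2.

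In tumours only Mcm6, Mcm10 and Tk1 held in every alternative. The number that rose was 1 without control 3, 2 without control 1 and 5 without mutant 1. Mcm2 missed the threshold without control 1 or 3 (adjusted p = 0.0714 and 0.0895), Mcm5 without control 1 or 3 or mutant 1 (0.0587 to 0.0902), Ccnd1 without any of the 3 controls (0.0858 to 0.112) and Cdt1 without control 3 (0.0522). Cdc6 missed it without control 1 or 3 or mutant 1 (0.0635 to 0.116), and Uhrf1 without control 1 or 3 or mutant 1 or 2 (0.0561 to 0.146). Mcm4 missed it without any control or mutant 1 or 2 (0.0860 to 0.152), and Rfc5 without any of the 6 animals (0.0604 to 0.136). Scaled by library size alone, which moved the median of all genes to 0.29, 0.42 and 0.48, the counts became 17 higher and 3 lower at 2 months, 19 and 2 in tumour-free tissue and 19 and 2 in tumours.

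Between tumours and tumour-free pieces of the same 3 mutants no member passed in either direction. On simulated data this test found 8% of 2-fold changes, so a member that did not pass may still differ. In this comparison 0.0137% of all genes passed, all higher. Of all 42 members 8 lay above in every tumour and 5 below (8.57% and 7.04% of all genes tested), and 6 of 41 members had an unadjusted p under 0.05 with edgeR. The smallest were Rfc2 (-0.57 ± 0.149, adjusted p = 0.302), Tk1 (-0.84 ± 0.231, adjusted p = 0.317) and Mcm10 (-1.29 ± 0.375, adjusted p = 0.343), for each of which the 3 tumours lay below the 3 tumour-free samples. With the animal as a block again no member passed. With DESeq2 Mcm10 was lower (-1.30, adjusted p = 0.0424), the 1 member called by that tool, and in 1 fit over all 5 groups Rfc2 was (-0.55, adjusted p = 0.0142). Ccnd1 changed by 1.38 ± 0.532 (adjusted p = 0.476), E2f1 by 0.51 ± 0.266 (0.596), Ccne1 by 0.31 ± 0.253 (0.771), Pcna by 0.07 ± 0.290 (0.969) and Mcm2 by -0.11 ± 0.252 (0.940).

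Control livers themselves differed between the times, which are also the sequencing runs. Of 39 members tested 4 rose from 2 to 9 months and none fell, against 7.29% and 4.64% of all genes (11.9% together). The older controls were all above the younger ones for 7 of all 42 members and all below for none, against 9.36% and 7.96% of all genes tested. E2f1 went from 3.53 ± 0.441 to 8.17 ± 1.46 CPM (1.21 ± 0.169, adjusted p = 0.00107), and all 3 older controls lay above all 6 young ones. Mcm2 went from 3.23 ± 0.807 to 6.51 ± 2.31 CPM (1.02 ± 0.259, adjusted p = 0.0265), Lig1 changed by 0.58 ± 0.159 (adjusted p = 0.0379) and Gins2 by 1.06 ± 0.303 (adjusted p = 0.0435). The call of E2f1 held in all 16 alternatives. Those of Mcm2, Lig1 and Gins2 did not: Mcm2 missed the threshold without 9-month control 2 or 3 or 2-month control 1 (adjusted p = 0.146, 0.0537 and 0.0503). Lig1 missed it in 7 of 9 such refits and Gins2 in 8, with adjusted p up to 0.100 and 0.214. Ccnd1, Ccne1 and Pcna did not pass (0.13 ± 0.164, 0.68 ± 0.638 and 0.15 ± 0.140, adjusted p = 0.649, 0.527 and 0.532).

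Whether the difference between mutants and controls changed with time was tested with an interaction term. For tumour-free tissue 1 of 41 members passed, downwards, against 1.05% of all genes downwards and 0.462% upwards (1.52% together). This was Ccnd1, whose difference from controls was smaller at 9 months than at 2 months by 1.52 ± 0.361 on the log2 scale (adjusted p = 0.0488). It missed the threshold in 19 of 22 alternatives, among them leaving out 2-month mutant 2, which had the highest level (-1.06, adjusted p = 0.129). For tumours 1 member passed, also downwards, against 1.73% of all genes downwards and 0.891% upwards (2.62% together): the difference in Rfc2 was lower at 9 months by 0.69 ± 0.143 (adjusted p = 0.0206), and it missed the threshold without 2-month mutant 1 or 2 (adjusted p = 0.0514 and 0.0714). For Mcm10 the changes with time were 0.60 ± 0.339 and -0.68 ± 0.454 (adjusted p = 0.513 and 0.499).

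Of further licensing and fork genes 4 of 29 rose (13.8%) and 4 fell (13.8%) at 2 months, against 22.3% and 20.4% of all genes. In tumour-free tissue 4 of 31 rose (12.9%) and 5 fell (16.1%), against 18.1% and 16.8%, and in tumours 2 of 33 rose (6.06%) and 3 fell (9.09%), against 13.8% and 11.3%. The list's shares were below those of all genes in each. Pold4, a small accessory subunit of polymerase delta, went from 12.2 ± 1.83 to 41.1 ± 5.90 CPM at 2 months (1.77 ± 0.132). It rose in tumour-free tissue too (1.81 ± 0.280). Pold2, another subunit of this polymerase, fell from 15.2 ± 1.5 to 7.60 ± 0.223 CPM at 2 months (-0.99 ± 0.119). Pold2 fell in tumour-free tissue and in tumours too (-1.18 ± 0.152 and -1.12 ± 0.254). Rnaseh2c, a subunit of the enzyme that removes ribonucleotides, fell in all 3 comparisons (-1.07 ± 0.136, -1.29 ± 0.251 and -1.47 ± 0.255). Timeless, of the fork protection complex, rose in tumour-free tissue (1.77 ± 0.186), and Pclaf, a partner of Pcna, in tumours (3.05 ± 0.598). With a control level of 0.147 ± 0.113 CPM, Pclaf could be tested only because of its tumour counts. Its rise, which the list's tally for tumours includes, is therefore only descriptive.

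Of further G1-S control genes 7 of 31 rose (22.6%, against 22.3% of all genes) and 3 fell (9.68%, against 20.4%) at 2 months. Of 33 tested at 9 months 7 rose (21.2%, against 18.1%) and 4 fell (12.1%, against 16.8%) in tumour-free tissue, while 8 rose (24.2%, against 13.8%) and 1 fell (3.03%, against 11.3%) in tumours. Inhibitors of the cycle were among those that rose. Cdkn1a, the gene of the inhibitor p21, went from 4.99 to 41.9 CPM at 2 months (3.08 ± 0.420) and rose in tumour-free tissue (3.00 ± 0.271) and tumours (2.11 ± 0.450). Cdkn2c and Cdkn2b, which inhibit the partners of cyclin D, rose in tumours (2.12 ± 0.277 and 3.35 ± 0.523). Cdkn2c also rose in tumour-free tissue (1.49 ± 0.199) and Cdkn2b at 2 months (2.02 ± 0.334). Cdkn2b was at 0.217 ± 0.0779 and 0.448 ± 0.210 CPM in 2-month and 9-month controls. It had enough counts only through the mutants, and its rises are a description. Rbl1, the gene of the pocket protein p107, rose in all 3 (1.82 ± 0.240, 1.86 ± 0.253 and 1.91 ± 0.330). Cdk6, a kinase partner of cyclin D, rose at 2 months (0.83 ± 0.0883) and E2f2 in tumour-free tissue (1.99 ± 0.354).

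Among further genes of nucleotide supply and chromatin assembly 4 of 15 rose (26.7%, against 22.3% of all genes) and 2 fell (13.3%, against 20.4%) at 2 months. In each 9-month comparison 2 rose and 2 fell (13.3% each way, against 18.1% and 16.8% of all genes in tumour-free tissue and 13.8% and 11.3% in tumours). Dut, which keeps uracil out of DNA, fell in tumour-free tissue and tumours (-0.84 ± 0.205 and -1.04 ± 0.233). Dnmt1, the maintenance methyltransferase that Uhrf1 recruits, rose in all 3 (0.88 ± 0.118, 1.40 ± 0.170 and 1.36 ± 0.179), and so did the deoxycytidine kinase gene Dck (1.11 ± 0.123, 1.2 ± 0.347 and 1.39 ± 0.334). Of S-phase checkpoint and fork protection genes 4 of 16 rose at 2 months (25%, against 22.3%), 2 of 18 rose and 1 fell in tumour-free tissue (11.1% and 5.56%, against 18.1% and 16.8%), and 3 of 19 rose in tumours (15.8%, against 13.8%). Fancd2, of the Fanconi pathway, rose at 2 months (1.59 ± 0.368) and in tumour-free tissue (1.57 ± 0.345). Young controls held just 0.307 ± 0.127 CPM of Fancd2, too little to test by themselves. The 2-month call, part of that time's tally, thus depends on mutant counts and is only descriptive. Of the 19 genes in this list, 14 could be tested between the control groups.

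Of 12 mitosis genes tested 11 rose at 2 months (91.7%, against 22.3% of all genes). Of 15 tested at 9 months 6 rose in tumour-free tissue (40%, against 18.1%) and 10 in tumours (66.7%, against 13.8%). None fell, against 20.4%, 16.8% and 11.3% of all genes in the 3 comparisons. Many of these mitosis genes are low in control liver, and between the controls of both times 8 of the 15 had enough counts to test. A gene that had enough counts only through the mutants had to differ, so these counts are a description. Their summed level was between 17.7 and 37.7 CPM in 2-month mutants and 8.56 and 12.6 CPM in controls. In the older animals it was between 8.52 and 28.1 CPM in controls, 28.1 and 43.4 CPM in tumour-free tissue and 53.6 and 59.96 CPM in tumours. Mki67, a marker of cycling cells, went from 1.51 ± 0.484 to 4.48 ± 1.75 CPM at 2 months (1.58 ± 0.308, adjusted p = 0.00175) and Top2a, the topoisomerase that untangles chromosomes, from 1.64 ± 1.05 to 9.31 ± 1.86 CPM in tumours (2.43 ± 0.462, adjusted p = 0.0106). This list was chosen with earlier results of these data known, and its share was not tested against that of the members.

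**Figure D5:**
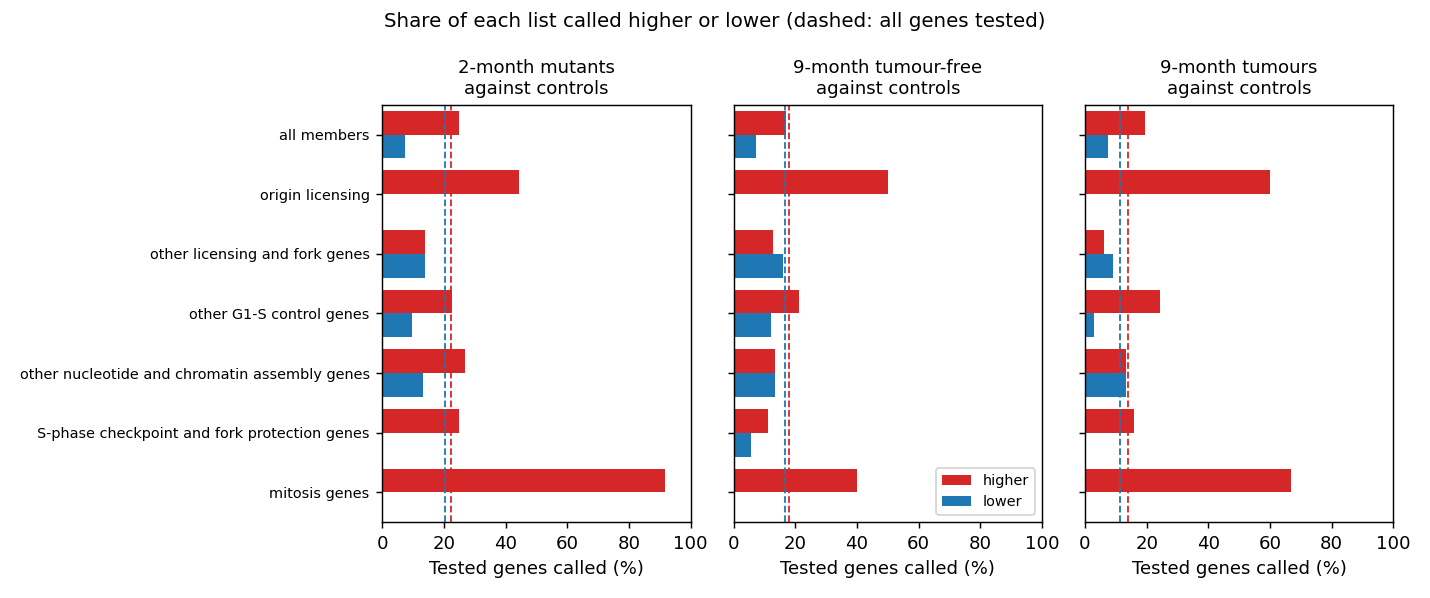
Percent of the tested genes of each list (y axis) that rose (red) or fell (blue) in the 3 comparisons of mutants with controls, with dashed lines for all genes tested. Origin licensing reaches 44.4%, 50% and 60% higher and mitosis genes 91.7%, 40.0% and 66.7%, and the whole set of members lies near the line for rises in the first 2 comparisons and at 19.5%, above the 13.8% of all genes, in tumours.

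Some markers of other cells differed between the same groups, while those of T and B cells did not pass. Of all genes tested 22.3%, 18.1% and 13.8% rose and 20.4%, 16.8% and 11.3% fell in the 3 comparisons. At 2 months the share of endothelial markers that rose (12.5%) was below that of all genes. Of 10 macrophage markers 3 rose at 2 months, 8 in tumour-free tissue and 5 in tumours, with summed levels of 664 to 1117 CPM in 2-month mutants against 385 to 774 CPM, and of 629 to 694 (tumour-free) and 444 to 701 (tumours) against 309.5 to 408 CPM at 9 months. Of 8 stellate and myofibroblast markers 4, 4 and 3 rose, with sums of 389 to 591 against 227 to 362 CPM, and of 425 to 599 and 359 to 624 against 238 to 332 CPM. Of 8 endothelial markers 1 rose at 2 months, 1 rose and 3 fell in tumour-free tissue, and 4 rose in tumours, with sums of 164 to 228 against 152 to 269 CPM, and of 164 to 172 and 232 to 295 against 195 to 215 CPM. Of 6 tested bile duct markers 2, 1 and 2 rose, with sums of 149 to 604 against 74.8 to 133 CPM, and of 92.5 to 241 and 92.8 to 2785 against 74.4 to 138 CPM. Of 5 tested erythroid markers 1 fell in each comparison, with sums of 114 to 164 against 254 to 323 CPM, and of 66.1 to 207 and 168 to 304 against 409.8 to 447 CPM. None of the T and B cell markers passed, with sums between 7.08 and 14.8 CPM in all groups. Of 9 hepatocyte markers 5, 4 and 4 fell and 1, 0 and 0 rose. No marker gene was at 0 in a group, and the part of other cell types in the changes of the members was not tested.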

How the data were processed

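Poly(A) RNA from 19 libraries of 15 mice was sequenced with a kit that keeps the strand, per the labels' protocols. The authors deposited whole-number counts per gene. The submitters' processing notes name STAR 2.6.1a, RSEM, bedtools 2.27.1, DESeq2 1.22.2 and GRCm38/mm10. The annotation and strand setting are not given in the sources used, and the counts may be rounded RSEM estimates, in which shared reads are split between genes. Of 55421 genes 24684 had no count.

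The 2 tumours of mutant 1 were summed. Main tests were edgeR 4.0.16 quasi-likelihood fits (R 4.3.3, TMM scaling, edgeR's own filter on low counts), with Benjamini-Hochberg adjustment over all genes tested and a threshold of 0.05, on the samples of each comparison alone. The change with time was an interaction term. SE is the log2 change divided by the root of F. The fits were tested on simulated data with 100 genes changed 2-fold and 100 changed 4-fold in each comparison. Of 2-fold changes 65% were found at 2 months, 40% in tumour-free tissue, 1% in tumours against controls and 8% between tumours and tumour-free tissue. Of 4-fold changes 89%, 88%, 55% and 57% were found. A gene that did not pass may thus still differ, in the tumour comparisons above all. Depth was 14294611 to 22062341 counts, which limits genes under 1 CPM most. Alternatives were DESeq2 1.42.0, limma 3.58.1 (voom), other scalings, no filter, 1 fit over all 5 groups, a replicate block and leaving out each animal. The alternatives added after seeing the data were leaving out the 9-month animals numbered 1, and either tumour of mutant 1 alone. Tumours and tumour-free tissue come from the same animals; deviations of same-animal samples from their group means correlated at 0.165, 0.300 and 0.0125.

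The members and all lists were chosen with earlier results of these data known. Statistics are given for up to 10 called members with the smallest adjusted p in a comparison (the 3 with the smallest p where fewer than 3 passed), for Pcna, Mcm2, Ccnd1, Ccne1 and E2f1 throughout, and for up to 4 called genes of each other list. Other members are named to account for the whole set. Gene positions are from GENCODE M21 and promoter windows from RefSeq.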

Additional observations from a re-analysis of the deposited data

Results flagged for a closer look

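In 84 sets of member values by group, 7 had 1 library far from the others for the spread of its group, and chance alone gives about 5% of sets. Values are CPM scaled over the 19 libraries. Among 2-month controls, control 3 stood at 25.01 for Rfc2 (next 22.7) and 13.5 for Rfc5 (next 9.33), control 5 at 9.24 for Rrm1 (next 10.98) and control 2 at 13.0 for Rrm2 (next 6.91). Among the 4 tumour libraries, tumour 2 of mutant 1 stood at 3.00 for Cdc45 (next 2.21), tumour 1 of mutant 1 at 149 for Lig1 (next 27.5) and the tumour of mutant 3 at 7.90 for E2f1 (next 5.32).

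The difference between mutants and controls changed with time for Ccnd1 in tumour-free tissue (-1.52) and for Rfc2 in tumours (-0.69), by the interaction test.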

How the results depend on the processing

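Mcm6, Mcm10 and Tk1 kept their direction and call in every alternative for all 3 comparisons of mutants with controls. Scaled by library size alone, 17 members rose at 2 months, 19 in tumour-free tissue and 19 in tumours, and the calls for a change with time fell to 0 for Ccnd1 and 0 for Rfc2. In 1 fit over all 5 groups 13 rose in tumours and 1 fell between tumours and tumour-free tissue, as 1 did with DESeq2. Without the 9-month animals numbered 1, 4 rose in tumour-free tissue and 3 in tumours. The call of Ccnd1 for a change with time was also lost (0 members) with voom, RLE factors, no filter, the 5-group fit and without those animals, and that of Rfc2 with no filter. The cause was not tested. Leaving out 1 animal gave 8 to 11 rises and 3 to 4 falls at 2 months, 4 to 9 and 3 to 3 in tumour-free tissue, 1 to 9 and 2 to 2 in tumours, 1 to 4 rises between the controls, and 0 to 1 calls for each change with time.

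Pcna turned sign in tumour-free tissue scaled by library size (0.26) or without tumour-free sample 3 (0.0029), and in tumours scaled by library size (0.36), with the tumours of mutant 1 as separate libraries (0.0089), without mutant 2 (0.092) or without mutant 3 (0.0031). Between tumours and tumour-free tissue Pcna turned to -0.011 without the animals numbered 1, -0.076 without tumour-free sample 3 and -0.23 without tumour 1, and Mcm2 to 0.0096 without tumour-free sample 1 and 0.115 without tumour 3. Leaving out 1 animal in turn gave ranges for Pcna of -0.36 to 0.0029 in tumour-free tissue, -0.37 to 0.092 in tumours and -0.23 to 0.28 between them, and for Mcm2 of -0.25 to 0.115 between them. None of these values passed.

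Mutants and controls share only a number: same-numbered samples correlated from -0.295 to 0.415. With the replicate block 5 members rose and 2 fell at 2 months, 8 and 3 in tumour-free tissue and 7 and 2 in tumours. The animal as a block changed no call between tumours and tumour-free tissue. Genes under 1 CPM, such as Orc1 and Cdc6, are limited by depth.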
